A study of Mus musculus with 8 samples.

Results

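Cells of the LLC1 line that received 5 fractions of 2 Gy of X-rays (written 5x2 Gy) were compared with untreated cells of the same line on 3 two-colour oligonucleotide arrays, out of 8 arrays in the series. LLC1 is an established line from a lung carcinoma of a C57BL/6 mouse, grown in serum-containing DMEM, and RNA was harvested 4 h after treatment. On each array the irradiated cells were labelled with Cy5 and the untreated cells with Cy3, and the dyes were never exchanged. The other arrays carried cells given a single dose of 2 Gy (3 arrays) or of 10 Gy (2 arrays), each again beside untreated cells. The labels call the arrays of a regimen biological replicates, and give neither the interval between fractions nor whether the 4 h count from the last of them. The members of the comparison are the 3 arrays labelled with the 5x2 Gy dose, and the result is the log2 ratio of irradiated over untreated signal for 11951 genes, 1 probe per gene. A log2 ratio of 1 is a 2-fold difference.

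X-rays break DNA, and the breaks activate the kinases ATM and ATR, which stabilise the transcription factor p53. p53 switches on genes that hold the cell cycle, repair DNA or start apoptosis, and it also switches on Mdm2, whose product removes p53 again. Through the CDK inhibitor p21, the product of Cdkn1a, the response lowers the transcription of replication and mitosis genes that E2F and related factors drive. With divided doses the cells that are sampled can carry the effect of earlier fractions as well as of the last one.

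Between 44.8% and 48.4% of the probes were above the negative controls in the untreated channel of the 3 arrays, and 34.7% to 36.0% in the irradiated channel. The SD of the log2 ratios over all genes was 0.45 to 0.47 on each array. Across genes, which do not count as independent replicates, pairs of the arrays had r of 0.83 to 0.89, and no array stood apart. All 3 arrays lay on 1 slide, together with 1 of the 10 Gy arrays, and with so few arrays their number sets the precision. The dye orientation never changed, so any difference between the dyes at a given probe enters its ratio; this was not tested. RNA was taken from whole cultures, so that fewer cells of a kind and less RNA per cell cannot be told apart. Of the markers of other cell types, none of 5 endothelial genes, 1 of 6 leukocyte genes (Cd3e, above background in the untreated channel only) and 2 of 8 alveolar and airway genes had a probe above background. The epithelial markers Epcam and Cdh1 were not above background either, while the keratin genes Krt8, Krt18 and Krt19 and all 6 mesenchymal markers, Vim among them, were. Cdh1 is the epithelial cadherin and Vim the intermediate filament of mesenchymal cells. Epithelial Krt8 rose by 0.77 and its partner Krt18 fell by 0.63 on the log2 scale. Fibronectin (Fn1) rose, with log2 ratios of 0.31, 1.19 and 0.74. The proteoglycan decorin (Dcn), which was not above background in untreated cells, rose at least 2.21-fold. Dcn is 1 of 6 fibroblast markers, of which 3 had a probe above background: 1 rose, 1 fell and 1 did not pass. These markers thus showed no common direction, and all 3 were at background in 1 of the channels.

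The highest ratio of a named gene was that of Crip2 and the lowest that of Ttbk1. Crip2, which codes for a LIM domain protein, had log2 ratios of 2.84, 2.83 and 2.89 on the 3 arrays. Its mean was 2.85 ± 0.07 (limma's moderated SE, n = 3) or 7.23-fold (limma, Benjamini-Hochberg adjusted p = 4.4e-06). Ass1, the argininosuccinate synthase that cells need to make arginine, was at 2.63, 2.84 and 2.96, which is 7.0-fold higher. For both genes the arrays lay within a narrow range far above 0. In total 7221 genes, 60.4% of those tested, passed the threshold of an adjusted p under 0.05: 3367 (28.2%) were higher in the irradiated cells and 3854 (32.2%) lower. These shares are the background against which each list is read below, and "rose" and "fell" are used only of genes past this threshold. The lists were chosen with earlier results of these data known, so their shares are descriptions and no independent test. Which direction held more genes depended on the processing. Of the genes tested, 1992 were above background on no array in 1 of the channels. With only genes above background in both channels on all 3 arrays, 3074 were higher and 2690 lower. With median centring in place of loess the split was 3853 higher and 3526 lower. Most of the changes were small: 5208 of the 7221 genes (72.1%) differed by less than 1.5-fold. Past the threshold and at least 2-fold were 151 genes (1.26%) among the higher and 117 (0.979%) among the lower. The median SD between the 3 arrays was 0.12 on the log2 scale, so that small differences passed. The p-values and SE rest on limma's moderated variance. It combines a gene's spread between these 3 arrays with that of all genes tested. Of the genes past the threshold, 2714 had other kept probes, and for 1024 of these at least 1 such probe had the opposite sign; where a named gene is among them, this is said. A further fit of all 8 arrays took slide as a block, and its slide effect rests on the 2 arrays of 10 Gy only. It gave 4700 genes (1916 higher and 2784 lower). Below it is called the slide-blocked fit and is given beside many, not all, of the main values that it moved. The named genes whose call was lost in any alternative are listed with the limits at the end.

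Among the other genes with the highest ratios were Dcxr (4.82-fold), a carbonyl reductase, Ak1 (4.47-fold), an adenylate kinase, and Ephx1 (3.41-fold), the microsomal epoxide hydrolase. Regulators of growth were also among them: Mxd4, a partner of MAX that opposes MYC, at 1.45, 2.17 and 1.88, and Eif4ebp2, which binds the cap-binding protein eIF4E and restrains translation, at 1.67, 1.85 and 1.87. The replicates of Mxd4 were spread more widely than those of Eif4ebp2, but all lay above 1. Anxa8, an annexin, and Serpine2, a protease inhibitor, were not above background in the untreated channel on any array, and were at least 4.98-fold and at least 3.57-fold higher after irradiation. Such a fold sets the irradiated signal against the lowest signal counted as above background, and is a lower bound open to dye bias. Ptp4a3 (a phosphatase, 3.32-fold), Lpin1 (a phosphatidate phosphatase, 3.22-fold), Sulf2 (which edits heparan sulfate, 3.20-fold), Cp (ceruloplasmin, a copper-carrying ferroxidase, 3.12-fold) and Timp2 (an inhibitor of matrix metalloproteinases, 3.03-fold) completed the upper end with Ccng1, described below. The other kept probe of Ptp4a3 had the opposite sign.

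At the lower end stood Ttbk1, a tau kinase, with log2 ratios of -2.43, -2.49 and -2.68 (5.77-fold lower, adjusted p = 6.4e-06). Amh, the anti-Müllerian hormone, was above background on all 3 arrays in untreated cells and on none in irradiated cells, and was at least 5.12-fold lower. Ttbk1 and Amh are the genes with the lowest means of all those named. Pinlyp, Grin2d (a glutamate receptor subunit) and Pacsin1 were likewise not above background after irradiation, with falls of at least 1.89-fold, 2.21-fold and 1.62-fold. Syn1, a synapsin, fell 2.85-fold, but its other kept probe had the opposite sign, as had 1 of 2 other probes of Pacsin1. The transcription factor gene Klf2, at -1.87, -1.57 and -1.76, and the snoRNA host gene Snhg5, at -1.60, -1.79 and -1.76, were low on every array. The rest were Rock1, a kinase of the actomyosin cytoskeleton, 2.81-fold lower, and Ung, the uracil-DNA glycosylase, 2.64-fold lower. Gpt2, Cth, Trib3, Fdps and Bnip3, also among the lowest 15, belong to pathways described below.

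**Figure D1:**
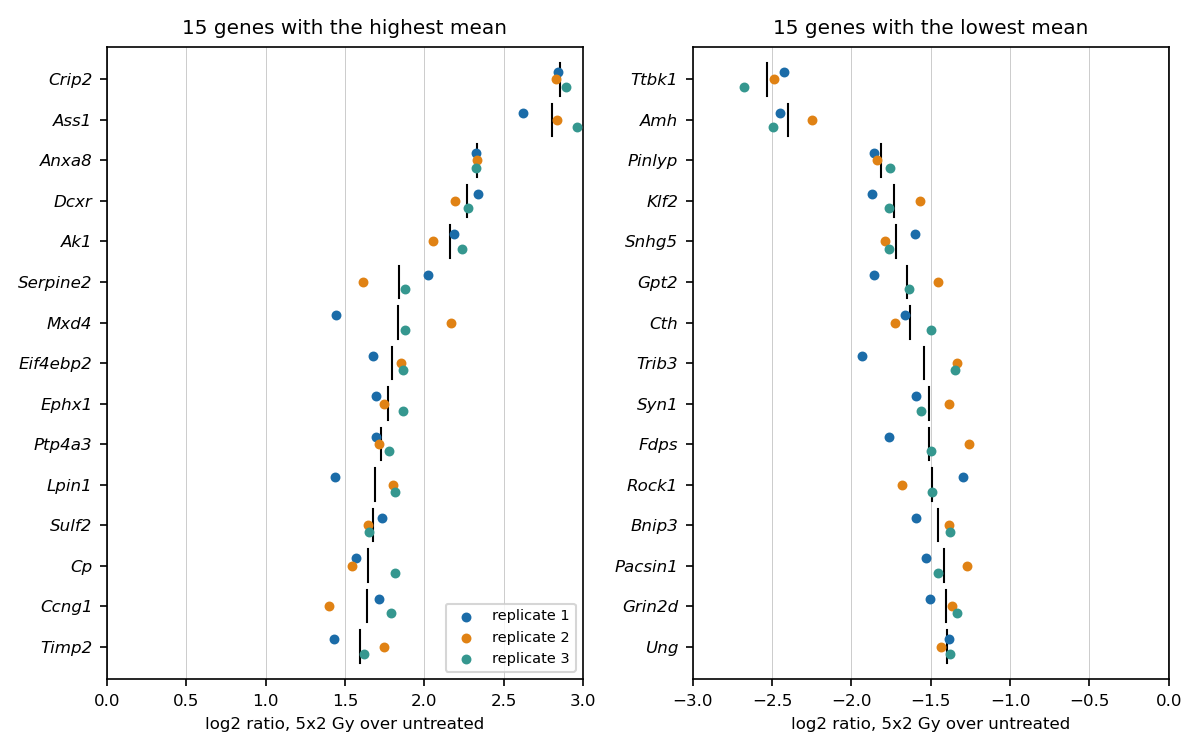
Log2 ratio of 5x2 Gy over untreated signal (x axis) for the 15 genes with the highest and the 15 with the lowest mean among named genes past the threshold; points are the 3 arrays and the black tick is their mean. The arrays of a gene lie close together, as for Crip2 (2.84, 2.83 and 2.89) and Ttbk1 (-2.43, -2.49 and -2.68); for genes at background on 1 side the measured ratio is drawn.

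Of 15 genes for p53 and its regulators, 8 rose and 2 fell. Trp53 itself was 1.53-fold higher, at 0.50, 0.50 and 0.84, and replicate 3 was the highest of the 3. The feedback gene Mdm2, the ubiquitin ligase of p53, was at 0.71, 0.57 and 0.74, a rise of 1.60-fold (adjusted p = 0.00027). Ccng1, which codes for cyclin G1 and recruits a phosphatase to MDM2, rose more, at 1.72, 1.40 and 1.79 or 3.11-fold. Trp53inp1, which promotes p53 activity, rose 2.33-fold with replicate 2 lower than the others (1.44, 0.67 and 1.55), and Trp53bp1, a scaffold at DNA breaks, rose 1.56-fold. The genes that fell were Atr, the kinase of replication stress (1.56-fold), and Usp7, the deubiquitinase of MDM2 and p53 (1.62-fold).

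The p53 target genes moved upwards as a list: 36 of 53 tested (67.9%) rose, 15 of them at least 2-fold, and 3 fell. The median log2 ratio was 0.73 against -0.02 over all genes. Members Dcxr, Ak1, Ephx1, Ptp4a3, Sulf2 and Ccng1 are also among the 15 named genes with the highest ratios. The list was chosen with earlier results of these data known, so these figures describe it and are no independent test. Cdkn1a, the gene of p21, had ratios of 1.35, 1.15 and 1.30. Its mean was 1.27 ± 0.07 (moderated SE, n = 3) or 2.41-fold (limma adjusted p = 5.8e-05). All 3 arrays lay above 1 on this scale. The steepest rises in the list were in enzymes and not in cell cycle genes: Dcxr at 2.34, 2.20 and 2.27, Ak1 at 2.19, 2.05 and 2.24 and Ephx1 at 1.70, 1.74 and 1.87. Further members at least 2-fold higher were Cpt1c (2.69-fold), a carnitine palmitoyltransferase, Ei24 (2.29-fold), a membrane protein of the endoplasmic reticulum, Pltp (2.01-fold), a phospholipid transfer protein, and Ddit4 (2.01-fold), an inhibitor of mTOR signalling. Gdf15, a secreted stress cytokine, rose only 1.32-fold, at 0.20, 0.53 and 0.46. The members that fell, named because they were few, were Sfn (the 14-3-3 sigma protein, 1.83-fold), Gls2 (a glutaminase, 1.71-fold) and Triap1 (1.29-fold).

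A full p53 site was looked for in the 250 bases before the annotated start, as 2 copies of the decamer consensus with a short spacer, on either strand. Of the 53 members tested, 44 had a promoter in the RefSeq table, and only that of Cdkn1a held a match, as did 0.0639% of all 32851 promoters in the table. It is shown, with the match in capitals, because Cdkn1a is the best known target and rose on every array. The window is chr17:29090729-29090978 on the plus strand of GRCm38.p6, and the match begins 73 bases before the start. A match is a description of these letters only.
Cdkn1a: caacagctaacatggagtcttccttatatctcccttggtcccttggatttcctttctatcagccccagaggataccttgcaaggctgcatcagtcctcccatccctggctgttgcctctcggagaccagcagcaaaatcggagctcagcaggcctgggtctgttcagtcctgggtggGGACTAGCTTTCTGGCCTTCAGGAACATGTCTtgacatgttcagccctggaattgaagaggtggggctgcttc

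**Figure D2:**
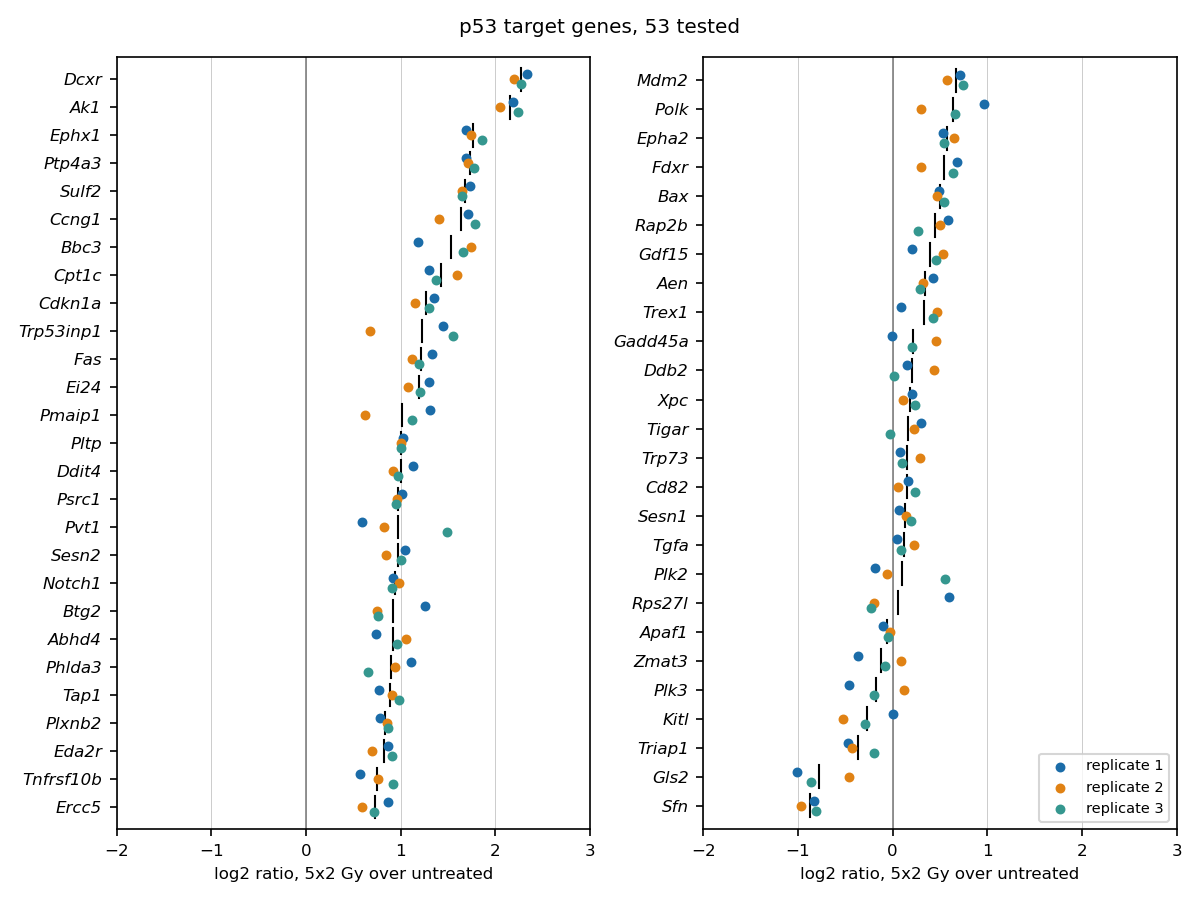
Log2 ratio of 5x2 Gy over untreated signal (x axis) for the 53 p53 target genes tested, ordered by their mean (black tick); points are the 3 arrays. The points of 36 genes lie to the right and passed the threshold, from Dcxr (2.27) downwards, and Sfn (-0.87) is the lowest.

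Within the BCL2 family, which sets whether mitochondria release their apoptotic factors, 8 of 12 genes rose and 1 fell. The median was 0.595, and 0.21 with the mean over a gene's probes. The BH3-only killers led: Bbc3 (PUMA) at 1.18, 1.75 and 1.66, 2.88-fold, and Pmaip1 (NOXA) at 1.31, 0.63 and 1.12, 2.03-fold, with replicate 2 the lowest. Bid rose 1.65-fold and Bad 1.71-fold. Among the pore formers Bax rose 1.41-fold, at 0.49, 0.47 and 0.54, and Bak1 1.68-fold, while Bok fell 1.22-fold; the call of Bok was lost without replicate 2 (adjusted p = 0.059) and without replicate 3 (0.065). On the protective side Bcl2l1, the gene of BCL-XL, rose 1.61-fold, and Mcl1 did not pass the test, at -0.10, -0.07 and -0.05. The other kept probes of Bad and Bak1 had the opposite sign.

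Death receptor genes and caspases were mixed, with 8 of 21 higher, 6 lower and a median of -0.01, which ranged from -0.10 to 0.05 over the alternatives. The receptor gene Fas, at 1.34, 1.13 and 1.20 or 2.33-fold higher, was the only member past 2-fold. Tnfrsf10b, the TRAIL receptor gene, rose 1.68-fold, the adaptor gene Tradd 1.68-fold, and Cflar, which codes for the inhibitor FLIP, 1.87-fold. The other kept probe of Tnfrsf10b, and 4 of 6 other probes of Cflar, had the opposite sign. The genes of the released mitochondrial factors fell: Cycs (cytochrome c) 1.73-fold and Diablo (SMAC) 1.43-fold.

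Genes of DNA replication and the G1/S transition fell as a list: 41 of 62 (66.1%) fell against 32.2% of all genes, 3 rose, and the median was -0.36 (-0.55 in the slide-blocked fit, with 45 lower and 1 higher). Tyms, the thymidylate synthase, was at -0.90, -1.08 and -0.99, or 1.98-fold lower (adjusted p = 8.9e-05), with all arrays near -1. The cyclin gene Ccne2 fell 1.91-fold, at -0.71, -0.98 and -1.10. Components of the replication fork fell by similar amounts: Rfc5, a clamp loader subunit, 1.75-fold, the primase subunit Prim1 1.74-fold, the helicase activator Cdc45 1.73-fold and the helicase subunit Mcm2 1.40-fold. Pcna, the sliding clamp, fell 1.27-fold, but its spot was saturated on all 3 arrays. Rrm2, a subunit of ribonucleotide reductase, did not pass, at 0.23, -0.11 and -0.07. The 3 that rose were Chaf1a (0.43, 0.04 and 0.82), Ccne1 and Rfc2, the latter both 1.17-fold. Their signs turned in the slide-blocked fit, and their calls were lost without replicate 3 (adjusted p = 0.16 for Chaf1a, 0.17 for Ccne1 and 0.27 for Rfc2), that of Ccne1 also without replicate 1 (0.12). The motif TTTNNCGC, a form of the E2F site, was present on either strand in 14 of 49 promoters of the list (28.6%), in 8.19% of those of all tested genes and in 4.28% of all promoters. Among the other 7 lists scanned it was present in at most 17.2% (G2 and mitosis), and in 15.9% of p53 targets, which mostly rose.

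Of 68 genes of G2 and mitosis 34 fell and 10 rose, with a median of -0.23 and a lower value on replicate 2 (-0.42) than on the others (-0.12 and -0.21); in the slide-blocked fit the median was -0.85, with 50 lower and 2 higher. The condensin gene Smc2 was at -1.19, -1.28 and -1.35, 2.42-fold lower (adjusted p = 5.4e-05), and Ncapg, of the same complex, fell 2.20-fold. Top2a, the topoisomerase of dividing cells, was at -0.98, -1.22 and -1.07 and the spindle checkpoint kinase gene Bub1 at -0.91, -1.43 and -1.23. The other kept probe of Bub1 had the opposite sign. Plk4, the kinase of centriole duplication, fell 1.76-fold. Among cyclins Ccna2 fell 1.94-fold, at -0.61, -1.09 and -1.16, whereas Ccnb1 fell only 1.21-fold, at -0.11, -0.48 and -0.24, a call lost without replicate 2 (adjusted p = 0.12) or replicate 3 (0.084). Fzr1, which codes for the CDH1 activator of the anaphase-promoting complex, went the other way, at 0.96, 1.08 and 1.02 or 2.03-fold higher. Among CDK inhibitors and pocket proteins, Rb1 rose 1.65-fold and Rbl2 1.48-fold (a sign that turned in the slide-blocked fit), and Rbl1 fell 1.77-fold and Cdkn1b (p27) 1.27-fold. The sequence TTTGAA, the core of the cell cycle homology region, was present in 20 of 58 promoters of the G2 and mitosis list (34.5%), in 22.4% of those of the G1/S list, in 18.2% of those of p53 targets and in 12.5% of those of all tested genes.

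DNA repair genes were read by pathway. Of 38 genes of homologous recombination and the Fanconi anaemia pathway, 19 fell and 8 rose (24 and 2 in the slide-blocked fit). The median was -0.23, and -0.13 with only genes above background in both channels on all 3 arrays. For 6 of the 38, against 1992 of all 11951 genes, 1 of the channels was above background on no array. Dna2, a nuclease that resects break ends, was at -1.08, -1.10 and -1.02, 2.09-fold lower, and the checkpoint kinase gene Chek1 at -0.87, -1.0 and -0.96, 1.92-fold lower. Fancb fell 2.02-fold and Fancd2, the monoubiquitinated core of the pathway, 1.58-fold, while Rad51d, also of recombination, rose 1.98-fold. In non-homologous end joining, which seals breaks without a template, 4 of 12 genes rose (33.3%, against 28.2% of all genes) and 2 fell. In the slide-blocked fit 3 rose and 4 fell, and the median went from 0.02 to -0.17. Xrcc5 (Ku80), at 0.60, 0.68 and 0.69, and Nhej1 (XLF) were 1.58-fold and 1.54-fold higher. Xrcc4, the partner of DNA ligase IV, fell 1.52-fold, and Rif1, which shields break ends from resection, fell 2.50-fold, at -1.12, -1.57 and -1.29. Among 34 genes of excision and mismatch repair 13 fell (38.2%) and 9 rose (26.5%), near the 32.2% and 28.2% of all genes. The median was -0.05, so the list as a whole stayed near the background. In the slide-blocked fit 10 fell and 3 rose, with a median of -0.235. Besides Ung, the glycosylase genes Tdg (1.85-fold) and Neil3 (at least 1.39-fold) fell, as did Msh3, of mismatch recognition (1.54-fold). Ddb1, a subunit of the ultraviolet damage sensor, rose 1.73-fold.

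**Figure D3:**
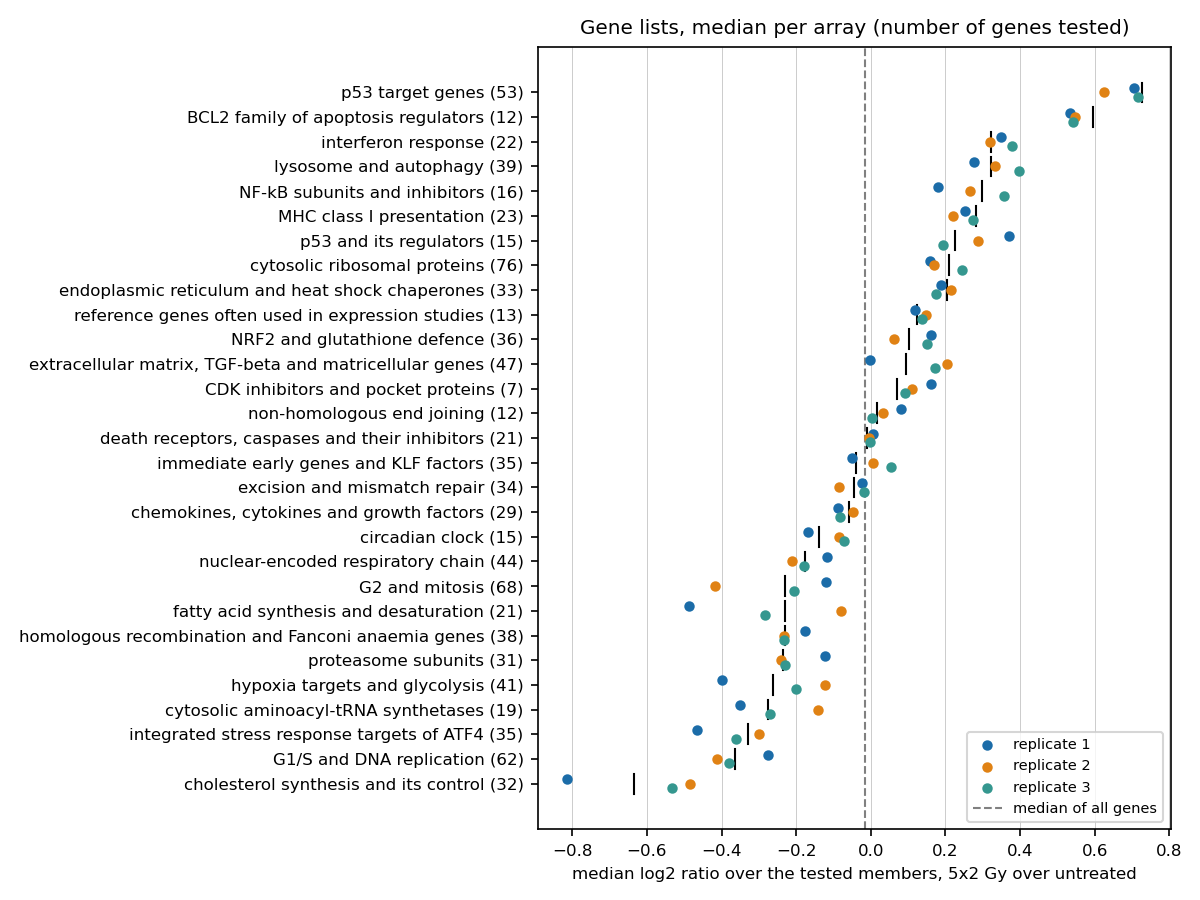
Median log2 ratio of 5x2 Gy over untreated signal (x axis) over the tested members of each gene list (number tested in brackets); points are the 3 arrays, the black tick is the median of the members' means and the dashed line the median of all genes (-0.02). The list of p53 targets lies highest (0.73) and that of cholesterol synthesis lowest (-0.63), with replicate 1 the lowest of the arrays for the latter.

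Cholesterol synthesis had the lowest median of the lists examined, -0.63, with 20 of 32 genes lower (62.5%), 6 of them at least 2-fold, and 4 higher. Cells make cholesterol from acetyl-CoA through mevalonate and lanosterol, and the transcription factor SREBP2 drives nearly all the enzymes together when sterols are scarce. From the mevalonate arm, Fdps, which makes farnesyl diphosphate, was at -1.76, -1.26 and -1.50. Its mean was -1.51 ± 0.10 (moderated SE, n = 3) or 2.84-fold lower (limma adjusted p = 7.7e-05). Replicate 1 was the lowest for this gene and for the list median, which was -0.81, -0.48 and -0.53 on the 3 arrays. Idi1 fell 2.01-fold, Pmvk 1.90-fold, the thiolase gene Acat2 1.77-fold and Hmgcs1, the HMG-CoA synthase, 1.65-fold, at -0.80, -0.62 and -0.74. Of the later enzymes Sqle, the squalene epoxidase, fell 1.51-fold, Cyp51 1.83-fold, Msmo1 1.96-fold and Sc5d 2.01-fold. Hsd17b7 was not above background after irradiation and was at least 2.09-fold lower.

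Among the genes of control and transport, Srebf2, which codes for SREBP2, was at -1.09, -0.68 and -0.46, 1.67-fold lower, and the sterol sensor Insig1 fell 1.70-fold. The sterol carrier Stard4 was lower on every array, at -1.0, -1.06 and -1.03. For Srebf2, 1 of 2 other kept probes had the opposite sign. The 4 genes that rose are mostly not synthetic enzymes: Nr1h2, the liver X receptor beta (1.80-fold), Npc1, which exports cholesterol from lysosomes (1.36-fold), Scap, the escort of SREBP (1.30-fold), and Ebp, a sterol isomerase (1.30-fold). The call of Ebp was lost without replicate 3 (adjusted p = 0.079). Of 21 genes of fatty acid synthesis and desaturation 9 fell, and Lpin1, at 1.44, 1.80 and 1.82, was the only one that rose. The elongase Elovl6 fell 2.12-fold, the desaturases Scd2 and Scd1 1.92-fold and 1.83-fold, and the acyl-CoA synthetase Acsl3 1.54-fold. Replicate 2 was closest to no change for this list, with a median of -0.08 against -0.49 and -0.28.

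Of the 32 cholesterol genes tested, 24 had a promoter in the RefSeq table. CCAAT, the site of NF-Y, was present on either strand in 20 of them (83.3%), against 40.2% of tested genes and 33.8% of all promoters. It was also common in other lists scanned, at 67.2% for G2 and mitosis, 66.7% for fatty acid synthesis, 61.2% for G1/S and 56.8% for p53 targets, which mostly rose, and was least common for lysosome genes (26.7%). The sterol element TCACNCCAC was present in 1, Hmgcs1 (4.17%), against 1.27% of tested genes and 1.05% of all promoters; in the fatty acid list it was present in 2 of 18 (11.1%). The Hmgcs1 window is shown with that element in capitals, 137 bases before the start, because it is the match among the genes that fell. It lies at chr13:119690101-119690350 on the plus strand of GRCm38.p6.
Hmgcs1: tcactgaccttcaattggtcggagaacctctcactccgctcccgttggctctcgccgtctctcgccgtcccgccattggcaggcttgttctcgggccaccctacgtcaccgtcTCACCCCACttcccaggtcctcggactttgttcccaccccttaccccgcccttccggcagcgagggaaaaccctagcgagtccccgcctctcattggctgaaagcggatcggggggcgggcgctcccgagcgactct

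**Figure D4:**
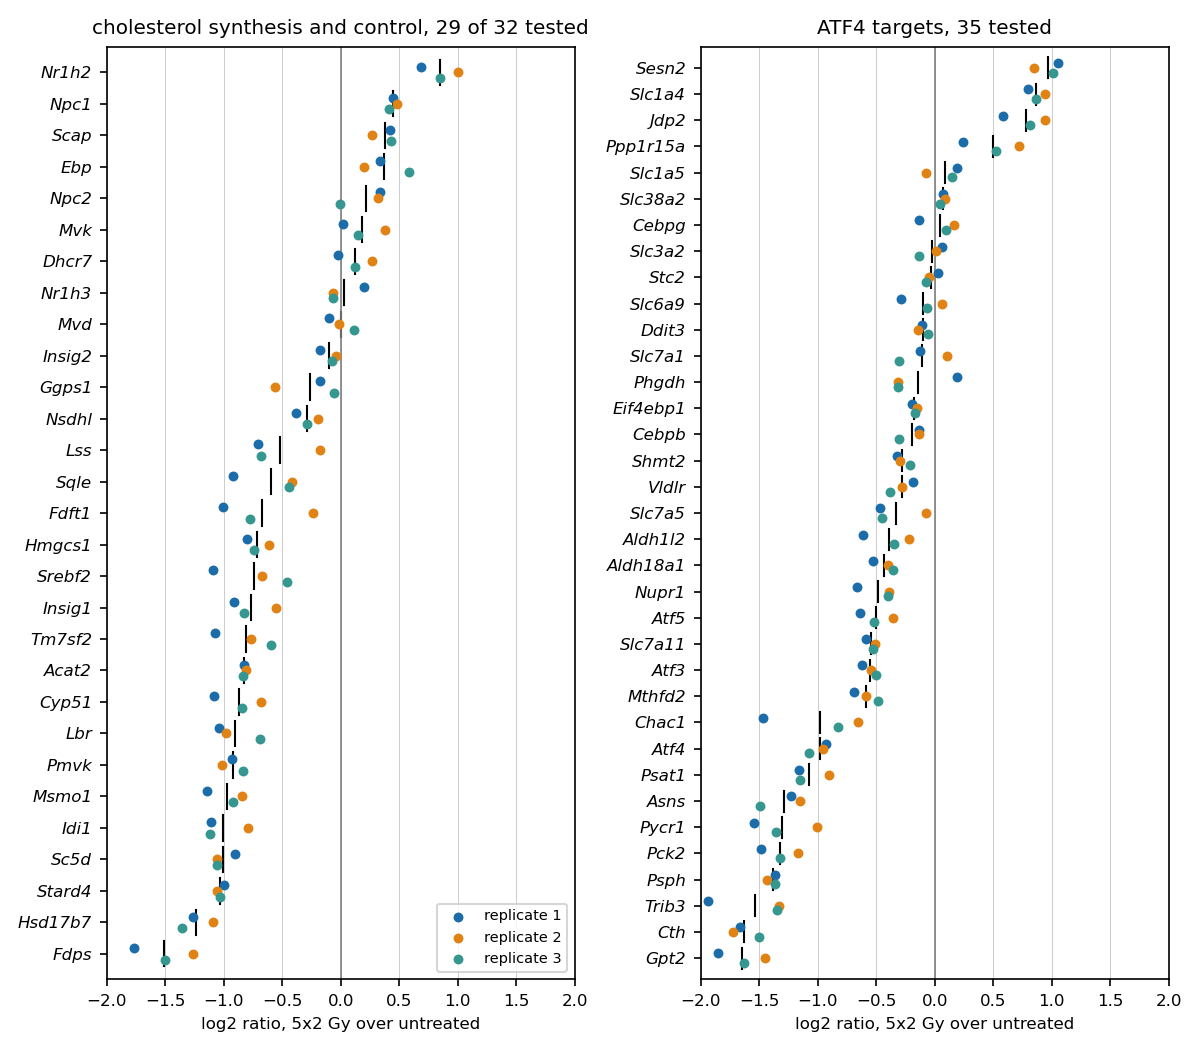
Log2 ratio of 5x2 Gy over untreated signal (x axis) for 29 of the 32 tested genes of cholesterol synthesis (left) and for the 35 tested targets of ATF4 (right), ordered by their mean (black tick); points are the 3 arrays. Points reach from Nr1h2 (0.85) to Fdps (-1.51) on the left and from Sesn2 (0.97) to Gpt2 (-1.65) on the right.

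Targets of ATF4 were mostly lower: 20 of 35 (57.1%) fell, 8 of them at least 2-fold, 4 rose, and the median was -0.33. The direction depended on the fit: in the slide-blocked fit 5 fell and 12 rose, with a median of 0.14. On the 5x2 Gy arrays themselves the list medians were -0.47, -0.30 and -0.36. The slide effect of that fit rests on the 2 arrays of 10 Gy, whose list medians were 0.50 and -0.38. ATF4 is the transcription factor of the integrated stress response, and it drives amino acid synthesis and import when translation is restrained. Atf4 itself fell 1.98-fold, at -0.93, -0.96 and -1.07 (adjusted p = 8.7e-05). The serine pathway fell at Psat1 (2.10-fold) and Psph (2.61-fold, -1.36, -1.43 and -1.36). Asns, the asparagine synthetase, was at -1.23, -1.15 and -1.50, Gpt2, the mitochondrial alanine aminotransferase, at -1.86, -1.45 and -1.64, and Pck2, the mitochondrial PEP carboxykinase, at -1.48, -1.17 and -1.32. For Psph, Asns, Gpt2 and Pck2 every array lay below -1, while Psat1 was at -0.90 on replicate 2. Gpt2, Asns, Psph, Trib3 and Pycr1 kept their sign but did not pass in the slide-blocked fit (adjusted p = 0.069, 0.12, 0.17, 0.94 and 0.092). Cth, which makes cysteine, was not above background after irradiation and was at least 2.87-fold lower. The pseudokinase gene Trib3 fell 2.91-fold, with replicate 1 the lowest (-1.94, -1.33 and -1.35). Of the genes of the list that rose, Sesn2, a sestrin that is also a p53 target (1.96-fold), Slc1a4, a neutral amino acid transporter (1.83-fold), Jdp2 (1.72-fold) and Ppp1r15a, the GADD34 phosphatase subunit (1.41-fold), none is an enzyme of amino acid synthesis.

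The sequence TGATGNAA, the core of the amino acid response element that ATF4 binds, was present on either strand in 9 of 30 promoters of the list (30%), in 2.27% of those of all tested genes and in 3.45% of all promoters. It was present in 3 of 13 promoters of the tRNA synthetases described next (23.1%), and in at most 8.33% of those of the other lists scanned. Windows are given for the 4 matched genes with the lowest ratios, with the match in capitals; on the other strand it reads as the reverse complement. Asns (-1.29) lies at chr6:7693210-7693459 on the minus strand with the match 23 bases before the start, Chac1 (-0.98, which degrades glutathione) at chr2:119350992-119351241 on the plus strand with the match at 193 bases, Pck2 (-1.33) at chr14:55540016-55540265 on the plus strand with the match at 103 bases, and Pycr1 (-1.31, of proline synthesis) at chr11:120643749-120643998 on the minus strand with the match at 103 bases, all in GRCm38.p6. Chac1 and Pycr1 were named for their match, after their values were seen.
Asns: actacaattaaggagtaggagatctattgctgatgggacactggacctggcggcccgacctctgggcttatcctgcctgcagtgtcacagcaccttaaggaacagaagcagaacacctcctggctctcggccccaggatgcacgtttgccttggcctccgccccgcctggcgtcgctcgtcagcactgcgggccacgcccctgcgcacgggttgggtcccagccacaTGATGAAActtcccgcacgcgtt
Chac1: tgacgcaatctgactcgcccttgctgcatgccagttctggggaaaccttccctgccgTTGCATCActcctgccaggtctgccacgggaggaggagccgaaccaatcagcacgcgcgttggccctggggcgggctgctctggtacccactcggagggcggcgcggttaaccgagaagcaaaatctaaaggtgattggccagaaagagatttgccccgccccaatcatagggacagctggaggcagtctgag
Pck2: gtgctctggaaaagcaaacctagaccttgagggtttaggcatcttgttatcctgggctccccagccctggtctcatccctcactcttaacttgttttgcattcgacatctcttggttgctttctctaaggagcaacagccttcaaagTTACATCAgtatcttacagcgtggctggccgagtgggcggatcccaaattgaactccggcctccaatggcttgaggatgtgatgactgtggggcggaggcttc
Pycr1: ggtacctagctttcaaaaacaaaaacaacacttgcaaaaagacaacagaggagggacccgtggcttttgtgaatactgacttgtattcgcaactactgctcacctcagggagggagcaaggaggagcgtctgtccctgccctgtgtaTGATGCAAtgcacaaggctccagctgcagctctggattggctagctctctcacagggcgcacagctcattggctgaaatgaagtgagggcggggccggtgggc

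Of 19 cytosolic aminoacyl-tRNA synthetases, which charge tRNAs and several of which ATF4 also drives, 11 fell and 3 rose, with a median of -0.27. Lars was at -0.89, -0.82 and -1.06, 1.90-fold lower, Dars fell 1.57-fold and Sars 1.48-fold. Those that rose, Qars (1.40-fold), Wars (1.24-fold) and Kars (1.22-fold), moved less, and the call of Kars was lost without replicate 3 (adjusted p = 0.14). In the slide-blocked fit 5 fell and 2 rose, the median was 0.03, and the sign turned for Chac1 (0.78) and Sars (0.19).

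Genes of hypoxia and glycolysis fell in 21 of 41 cases (51.2%) and rose in 6, with a median of -0.26; in the slide-blocked fit 13 fell and 3 rose. These genes are driven by HIF1 and supply and process glucose when oxygen is low. Slc2a1, the glucose transporter GLUT1, was at -1.68, -1.06 and -0.95, 2.35-fold lower, and Slc16a3, which exports lactate, at -1.32, -1.26 and -1.24, 2.42-fold lower. Replicate 1 was the lowest for Slc2a1, while the arrays hardly differed for Slc16a3. Bnip3, a mitophagy receptor, fell 2.74-fold, Adm, the peptide adrenomedullin, 2.24-fold, Pfkfb3, which stimulates glycolysis, 1.98-fold, Higd1a 1.65-fold and the demethylase gene Kdm3a 1.66-fold. Hif1a was at -0.48, -0.38 and -0.20, 1.28-fold lower, and Vegfa, the angiogenic factor, at -0.40, -0.41 and -0.17, 1.25-fold lower. The sign of Vegfa turned in the slide-blocked fit (0.45). Ddit4, also a p53 target, was the only member at least 2-fold higher.

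Matrix and TGF-beta genes moved both ways, with 19 of 47 higher and 12 lower (20 and 7 in the slide-blocked fit). The highest member was Timp2, an inhibitor of the metalloproteinases, at 1.43, 1.75 and 1.62 (3.03-fold). Next came Tgfbi, an extracellular adhesion protein, at 1.32, 1.49 and 1.43 (2.66-fold, adjusted p = 4.4e-05), the stromelysin gene Mmp3 at 1.23, 1.19 and 1.28 (2.35-fold), and the thrombospondin gene Thbs2 at 1.13, 1.12 and 1.21 (2.22-fold). Mmp14, the membrane-bound metalloproteinase, rose 2.03-fold and Tgfb1 1.40-fold. Ccn2 (CTGF) was at -0.82, -0.64 and -0.68, 1.64-fold lower, with no call in the slide-blocked fit (adjusted p = 0.99). So Tgfb1 rose while Ccn2, commonly read as its target, was lower in the fit of these 3 arrays, and Tgfbi, named for its induction by TGF-beta, was higher.

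Of 50 chemokines, cytokines and growth factors only 29 had a probe above background. Of the 29, 7 rose (24.1%) and 10 fell (34.5%), near the 28.2% and 32.2% of all genes (12 and 4 in the slide-blocked fit). For 7 of the 29, 1 of the channels was above background on no array. Il11, a cytokine of the interleukin 6 family, was at -1.17, -1.40 and -1.28, 2.43-fold lower, and the growth factor Hbegf fell 1.91-fold. The chemokine gene Cxcl5 rose 1.62-fold and Angptl4 1.61-fold. Neither Cxcl1 (-0.25, 0.59 and -0.30) nor Ccl2 (0.26, -0.37 and -0.06) passed, and their arrays lay on both sides of 0.

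Interferon response genes rose in 14 of 22 cases (63.6%), with a median of 0.32 (0.20 in the slide-blocked fit), and 18 of the 40 listed were not above background. Ifitm3, which blocks viral entry, was at 1.03, 1.03 and 1.15, 2.10-fold higher, Ifi35 rose 1.90-fold and the GTPase gene Irgm1 1.67-fold. Irf7 and Oas1a, which fell, were not above background after irradiation, and Ifnar1, a subunit of the type I interferon receptor, fell 1.22-fold. The call of Oas1a was lost without replicate 3 (adjusted p = 0.078) and that of Ifnar1 without replicate 1 (0.093). In MHC class I presentation 14 of 23 genes rose and 2 fell, with a median of 0.28, which was 0.15 with the mean over a gene's probes and 0.47 in the slide-blocked fit. The peptide loading genes Tapbp (tapasin), at 1.09, 1.01 and 0.98, and Tap1, at 0.77, 0.91 and 0.98, rose 2.04-fold and 1.85-fold, Calr 1.51-fold and the class I heavy chain gene H2-D1 1.66-fold. Those that fell moved little: B2m, the light chain, 1.21-fold and H2-K1 1.15-fold. In the slide-blocked fit the signs of B2m (0.23) and H2-K1 (0.18) turned. The call of H2-K1 was lost without replicate 1 (adjusted p = 0.15) or replicate 3 (0.13). For each of them 1 other kept probe had the opposite sign.

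Of 16 NF-kB subunits and inhibitors 9 rose and 3 fell. Nfkb2, the p100 subunit, was at 1.04, 0.99 and 1.06, 2.05-fold higher, and Rela rose 1.63-fold. Tnfaip3 (A20), an inhibitor that NF-kB itself induces, fell 1.53-fold, Chuk 1.41-fold (with its other kept probe of opposite sign) and Bcl3 1.18-fold, and the sign of Bcl3 turned in the slide-blocked fit (0.11), its call being lost without replicate 1 (adjusted p = 0.074) or replicate 2 (0.094). Immediate early genes and KLF factors were evenly divided, 11 up and 11 down of 35 (16 and 5 in the slide-blocked fit). That is 31.4% each way, near the 28.2% and 32.2% of all genes. Id1, at 1.18, 1.16 and 0.97, Id3, at 0.77, 0.87 and 0.85, and Id2, at 0.91, 0.65 and 0.81, which code for inhibitors of basic helix-loop-helix factors, all rose; 1 of 2 other probes of Id2 had the opposite sign. Klf2, at -1.87, -1.57 and -1.76, was the deepest fall, Klf6 fell 1.60-fold and Egr1, an early growth response factor, 1.85-fold, at -1.10, -0.52 and -1.03. Myc did not pass, at 0.08, 0.20 and 0.17. Of 15 clock genes 4 were at background in 1 of the channels. The repressor gene Bhlhe40 fell 2.28-fold, at -1.45, -0.99 and -1.13, and the output gene Dbp rose 1.70-fold.

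Lysosome and autophagy genes rose in 29 of 39 cases (74.4%, against 28.2% of all genes) and fell in 1, Bnip3, with a median of 0.32; in the slide-blocked fit 19 rose and 2 fell, with a median of 0.33. The protease gene Ctsd was at 1.18, 1.11 and 1.28, and was the only member at least 2-fold higher. Its mean was 1.19 ± 0.07 (moderated SE, n = 3) or 2.28-fold (limma adjusted p = 6.5e-05). Ulk1, the kinase that starts autophagy, was at 0.84, 0.98 and 0.90, 1.87-fold higher. The autophagy receptor Sqstm1 (p62) rose 1.74-fold, the proton pump subunit Atp6v0d1 1.69-fold and Gabarap, which tags autophagosome membranes, 1.57-fold. TCACGTGA, the core of the CLEAR element bound by TFEB, was present in 4 of 30 promoters of the list (13.3%), in 1.85% of those of tested genes and in 0.785% of all promoters. Its share was higher in the tRNA synthetase list, which mostly fell (2 of 13, 15.4%). The window of Ctsd is shown, with the element in capitals 99 bases before the start, since it is the member that rose most. It lies at chr7:142387828-142388077 on the minus strand of GRCm38.p6.
Ctsd: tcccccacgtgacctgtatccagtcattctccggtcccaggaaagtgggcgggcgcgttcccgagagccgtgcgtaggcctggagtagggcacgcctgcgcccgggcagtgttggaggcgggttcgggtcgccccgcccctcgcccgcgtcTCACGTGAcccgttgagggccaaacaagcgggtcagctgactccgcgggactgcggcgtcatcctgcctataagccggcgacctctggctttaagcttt

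Of 36 genes of NRF2 and glutathione defence 16 rose (44.4%) and 10 fell (27.8%), with 17 and 2 in the slide-blocked fit. The list moved both ways, with a median of 0.10 (0.02 with the mean over a gene's probes). The members named here rose, apart from Hmox1, while those that fell reached -0.79. Nfe2l2, the gene of NRF2, was at 0.68, 0.64 and 0.54, 1.54-fold higher, and its target Nqo1 at 1.37, 0.46 and 1.19, 2.01-fold higher with replicate 2 the lowest. The glutathione synthetase Gss rose 1.92-fold, Mgst1 1.87-fold and Gsto1 1.56-fold, whereas the heme oxygenase gene Hmox1 did not pass, at -0.24, 0.10 and 0.04. Among chaperones 16 of 33 rose and 4 fell. The small heat shock protein Cryab was at 0.94, 1.04 and 1.16, 2.06-fold higher, and Hspa5 (BiP), of the endoplasmic reticulum, rose 1.23-fold (not past the threshold without replicate 2, adjusted p = 0.052). Those that fell were Hspe1 (the mitochondrial chaperonin partner, 1.85-fold), Hsp90aa1 (1.76-fold), Hsph1 (1.72-fold) and Creld2 (1.39-fold).

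Of 31 proteasome subunits 17 fell and 3 rose (9 and 0 in the slide-blocked fit), with a median of -0.24 (-0.11 with median centring), among them Psmc6 (1.63-fold lower) and Psma6 (1.51-fold lower). Nuclear genes of the respiratory chain fell in 19 of 44 cases and rose in 6 (9 and 2 in the slide-blocked fit), with none past 2-fold. Uqcrb, of complex III, was at -0.75, -1.28 and -0.93 and Ndufv2, of complex I, at -0.64, -0.78 and -0.81. Cytosolic ribosomal protein genes rose in 37 of 76 cases, with a median of 0.21 (-0.13 with flagged spots left out and 0.64 in the slide-blocked fit), but the spots of 43 of them were saturated on at least 1 array. Rpl34, saturated on all 3, was at 0.55, 0.50 and 0.56. Rpl21, which was not saturated, fell 1.81-fold, at -0.98, -0.78 and -0.82, and Rpl14, Rpl10a and Rps6 fell 1.41-fold, 1.36-fold and 1.16-fold. The call of Rps6 was lost without replicate 2 (adjusted p = 0.092) or replicate 3 (0.11). Of 13 reference genes 3 rose and 2 fell: the glycolytic Gapdh was at 0.47, 0.52 and 0.51 with a saturated spot on all 3 arrays, and Actb at -0.38, -0.21 and -0.33 (not past the threshold without replicate 3, adjusted p = 0.060).

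Whether 5 fractions differed from 1, and divided from single delivery of the same total dose, was tested on the log2 ratios of all 8 arrays with 1 mean per regimen. All arrays contain untreated cells, and whether these came from the same cultures is not stated. Against a single 2 Gy, 176 genes (1.47%) differed at an adjusted p under 0.05, 51 (0.427%) with a higher and 125 (1.05%) with a lower ratio after 5x2 Gy. Without any 1 of the 6 arrays no gene passed, while 2046 to 2492 had an unadjusted p under 0.05. No slide held both regimens, so slide and number of fractions cannot be told apart. With slide as a block, where the slide effect is estimated from the 2 arrays of 10 Gy only, 785 were higher and 1605 lower, and 90 of the reported 176 were among them. Centring each array on its median in place of loess moved the median difference of all genes from -0.01 to -0.13, and the split to 46 higher and 685 lower.

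The genes with the largest differences, 8 in each direction, were chosen among those whose arrays did not overlap between the regimens. Fdps stood at -0.32, -0.08 and -0.34 after 2 Gy and at -1.76, -1.26 and -1.50 after 5x2 Gy. The difference was -1.26 ± 0.16 (moderated SE, limma adjusted p = 0.024). Mmp3 stood at -0.76, -0.57 and -0.55 after 2 Gy and at 1.23, 1.19 and 1.28 after 5x2 Gy, so that it was below 0 after the single dose on every array and above 0 after the divided one. The kinase gene Rock1 stood at -0.26, 0.22 and 0.14 after 2 Gy, around 0, against -1.30, -1.68 and -1.49. Eif4ebp2 stood at 0.40, -0.03 and 0.03 after 2 Gy, Cp at 0.49, 0.47 and 0.09 and Tgfbi at 0.67, -0.09 and 0.19, all below their values after 5x2 Gy. Further genes with a higher ratio after 5x2 Gy were Ak1, Sulf2, Nrip1 (a nuclear receptor corepressor) and Itpkc (an inositol trisphosphate kinase); 1 of 2 other probes of Nrip1 had the opposite sign. With a lower ratio were Dbi (the acyl-CoA binding protein), Cenpf (of the kinetochore), Cdc27 (of the anaphase-promoting complex), Hnrnpa0, Brcc3 and Slc16a3. For p53 targets this test passed for Ak1 and Sulf2, and not for Cdkn1a (difference 0.38 ± 0.46), Mdm2 (0.19 ± 0.33) or Fas (0.15 ± 0.27), which does not show that these acted alike. Ttbk1 was low after every regimen, at -2.82, -2.94 and -2.88 after 2 Gy and -2.65 and -2.36 after 10 Gy; the dye orientation was the same on all 8 arrays, and its part in this was not tested.

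Against the single 10 Gy 0 genes (0%) passed in limma (smallest adjusted p = 0.169), with 2082 at an unadjusted p under 0.05. The 10 Gy arrays differed widely from each other, as for Gdf15 at 5.45 and 0.53, Cdkn1a at 3.73 and 1.47 and Asns at 0.50 and -1.47. The second array, on the same slide as the 5x2 Gy arrays, is the nearer to their values for these genes. Leaving out 1 of the 2 arrays leaves a single array of 10 Gy, whose spread is then taken from the other regimens. With only the array on the shared slide no gene passed either (smallest adjusted p = 0.0525, 1486 at an unadjusted p under 0.05), and with only the other array 3069 were higher and 2351 lower. The 5 genes with the smallest p were Tmem126a, at -0.63, -0.73 and -0.76 after 5x2 Gy and 0.02 and -0.09 after 10 Gy, Tmem208, the cyclin gene Ccnb2 (0.04, -0.22 and 0.01 against -0.92 and -0.74), Ccdc59 and the netrin receptor Unc5a.

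**Figure D5:**
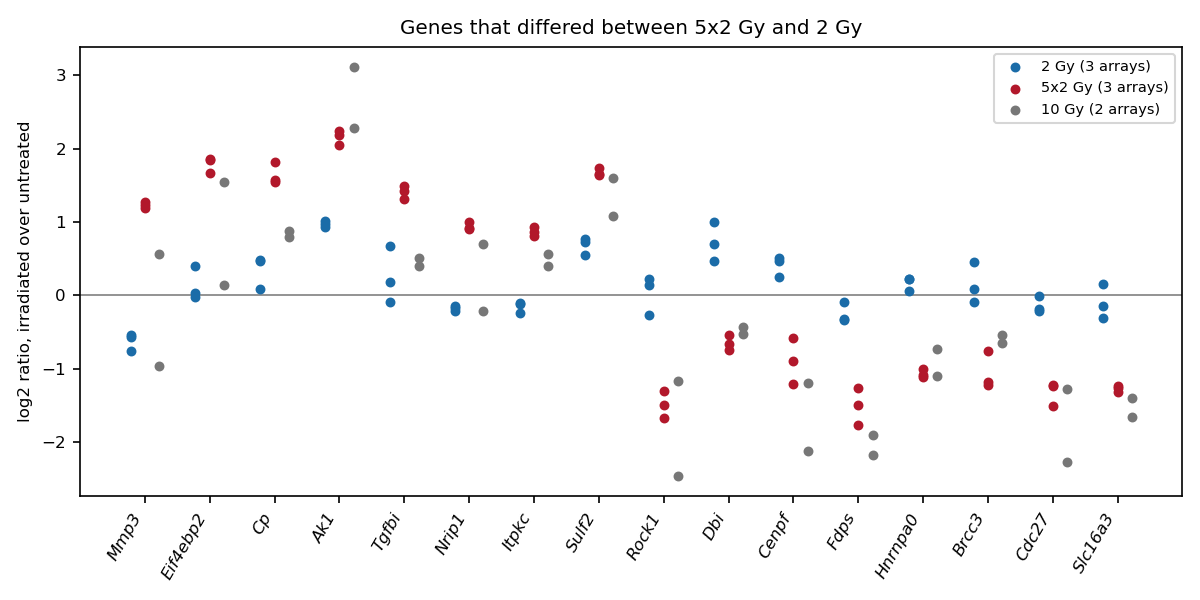
Log2 ratio of irradiated over untreated signal (y axis) for the 8 genes with the largest difference in each direction between 5x2 Gy and 2 Gy among those past the threshold; each point is an array (3 of 2 Gy, 3 of 5x2 Gy, 2 of 10 Gy). The points of 5x2 Gy and 2 Gy do not overlap, by the rule that chose the genes, as for Fdps (-1.76, -1.26 and -1.50 against -0.32, -0.08 and -0.34), and those of 10 Gy lie apart from each other for Mmp3 (-0.97 and 0.57).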

How the data were processed

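The deposited scanner files hold, per the file headers, an intensity per spot and channel (mean and median pixel signal, ImaGene 9.0), with no background column, no normalization and no log scale; the meaning of the spot flags is not given in the sources used here, and flagged spots were kept. The deposited series matrix holds log2 ratios, whose scale and direction were settled by regression on the scanner values of the same arrays (r 0.998 to 1.000; column medians of the 5x2 Gy arrays 0.0047, 0.0020 and 0.0087); it was used as an alternative. Its centring by the authors is not stated.

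Mean signals (45220 spots, 153 negative controls, 41174 probes) were corrected with normexp (offset 50) and normalized by loess within each array, control spots at weight 0, in limma 3.58.1 under R 4.3.3. Probes were kept if above the median plus 2.6 robust SD of the negative controls in at least 1 channel on at least 2 of the 3 arrays (18811 probes). Symbols came from accessions matched to the RefSeq gene table (GRCm38.p6; 27822 probes) or else from the array (7122), and 6230 probes had none. For each symbol the kept probe with the highest mean signal on these 3 arrays was used; 4368 genes had more than 1. The mean of the 3 arrays was tested against 0 with lmFit and eBayes, adjusted by Benjamini-Hochberg over 11951 genes. Levels in the "at least" folds were normalized between arrays with Aquantile. Regimens were compared in 1 fit of all 8 arrays. The code was checked on simulated data. Promoters were those of RefSeq.

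Genes were named by rule: up to 15 in each direction with the largest ratio among those past the threshold with 1 sign on all arrays, leaving out predicted names; a fixed set of known genes; up to 6 members with the smallest p and 2 with the largest p of each list; and for the regimens up to 8 in each direction, or the 5 with the smallest p. A part of these is given; some are not reported here. Where 5 or fewer members of a list moved one way they were named after their values were seen, as were Cpt1c, Ei24, Pltp, Idi1, Msmo1, Cyp51, Insig1, Psat1, Bub1, Fancb and Adm; families in the closing section were taken by symbol prefix, also after that. The comparison, the gene lists and the named genes were chosen with earlier results of these data known. Fos and Cd274 were in the fixed set and had no probe above background. Replicate 3 of 10 Gy was not analysed here.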

Additional observations from a re-analysis of the deposited data

Results flagged for a closer look

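For 31 of the genes named, the log2 ratio after 5x2 Gy differed from that after a single 2 Gy. The test was of the difference itself (limma on all 8 arrays, adjusted p 0.024 to 0.049). Of all genes tested 1.47% passed it. The 8 genes in each direction described above were named because they passed, and Gsn, Parp3, Snhg20 and Pnn after their values were seen. The count of 31 therefore reflects how genes were named and is no result about them as a set. The difference, 5x2 Gy minus 2 Gy on the log2 scale, was positive for Ak1 (1.19), Eif4ebp2 (1.67), Sulf2 (0.99), Cp (1.29), Tgfbi (1.15), Mmp3 (1.86), Thbs2 (0.97), Tapbp (0.79), Id2 (0.63), Nrip1 (1.12), Itpkc (1.02), Gsn (0.96) and Parp3 (0.72). It was negative for Snhg5 (-0.92), Fdps (-1.26), Rock1 (-1.52), Chek1 (-0.67), Smc2 (-0.90), Pmvk (-1.15), Slc16a3 (-1.18), Higd1a (-1.08), Uqcrb (-1.07), Dbi (-1.37), Cenpf (-1.31), Hnrnpa0 (-1.23), Brcc3 (-1.21), Cdc27 (-1.19), Neil3 (-1.0), Kdm3a (-0.97), Snhg20 (-0.80) and Pnn (-0.68). No slide held both regimens, so slide and regimen cannot be told apart, and with any 1 of the 6 arrays left out no gene passed the test.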

How the results depend on the processing

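The count of genes past the threshold against untreated cells stayed within 1.5 times of 7221 under 15 of 17 alternatives. It was 12335 with no filter on dim probes, where 21394 genes were tested, and 4700 in the fit of all 8 arrays with slide as a block, 3554 of them in the reported set with the same sign; the slide effect is there estimated from the 2 arrays of 10 Gy only. Leaving out 1 array gave 5408 (without replicate 3) to 7123 genes. With slide as a block the sign turned for Rrm2 (-0.18), Vegfa (0.45), Hmox1 (1.46), B2m (0.23), Sars (0.19), Chac1 (0.78), Bcl3 (0.11), H2-K1 (0.18), Ccne1 (-0.30), Rfc2 (-0.19), Chaf1a (-0.12) and Rbl2 (-0.046). The sign also turned with median pixel signal for Hmox1 (0.010) and Cxcl1 (-0.019), with median centring for Hmox1 (0.005) and Ccl2 (0.13), with the mean over probes for Hmox1 (0.056), with flagged spots left out for Ccl2 (0.22), and without 1 array, where Rrm2 ranged from -0.088 to 0.082, Hmox1 from -0.104 to 0.068, Cxcl1 from -0.28 to 0.169 and Ccl2 from -0.216 to 0.099. Rrm2, Hmox1, Cxcl1 and Ccl2 had not passed the test. Of the 234 genes named, 220 kept their sign in each alternative that tested them, and 177 were tested in all 17. Of the 228 named genes past the threshold, 53 lost the call or turned in at least 1 alternative. The call was lost in the fit of all 8 arrays with 1 mean per regimen for Gdf15, Bax, Pmaip1, Ccnb1, Vegfa, Hif1a, B2m, Hspa5, Atr, Cdkn1b, Sars, Cryab, Sqstm1, Rpl34, Chac1, Bok, Scap, Kars, Ifnar1, Bcl3, H2-K1, Rps6, Ccne1, Rfc2 and Chaf1a. It was lost with slide as a block for Gpt2, Trib3, Asns, Egr1, Ccn2, Hspa5, Actb, Trp53bp1, Bid, Ddb1, Fzr1, Psph, Qars, Hbegf, Psma6, Dcn, Pycr1, Triap1, Npc1, Scap, Ebp, Kars, Oas1a, Chuk, Rpl10a and Fhod1. Other losses were with median pixel signal (Ccnb1, Actb, Scap, Kars, Ifnar1, Rps6 and Ccne1), median centring (Ccnb1, Pcna, B2m, H2-K1 and Rps6), the mean over probes (B2m, Bak1 and Cflar), flagged spots left out (Pcna), saturated probes left out (Gapdh), the deposited log2 ratios and an offset of 0 (H2-K1 in both), and without replicate 1 (Ifnar1, Bcl3, H2-K1 and Ccne1), 2 (Ccnb1, Hspa5, Bok, Bcl3 and Rps6) or 3 (Ccnb1, Actb, Bok, Ebp, Kars, Oas1a, H2-K1, Rps6, Ccne1, Rfc2 and Chaf1a). Of the medians of 29 gene lists, 22 moved by more than the spread between the arrays with slide as a block; that of ATF4 targets became 0.14 and that of G2 and mitosis genes -0.85.

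Against 2 Gy the reported 176 genes became 59 with median pixel signal, 731 with median centring, 36 with scaling between arrays, 77 with genes above background in both channels, 3785 in a fit of those 6 arrays alone, 2390 with slide as a block and 411 with slide as a random block; 90 and 66 of the reported genes were among the latter 2 sets. Leaving out any 1 array gave 0, with an adjusted p of at least 0.097. Against 10 Gy the 0 became 1 with median pixel signal, and 0 to 5420 with 1 array left out, 5420 being without 10 Gy replicate 2, when 1 array of 10 Gy is left and is assumed to vary like the other regimens. With the replicate number as a block 0 genes passed in both comparisons of regimens. Whether the numbers mark shared cultures was not settled by comparing each array's deviations from the mean of its regimen. Those of same-numbered 2 Gy and 5x2 Gy arrays correlated across genes at r between -0.022 and -0.015, so these arrays did not deviate together. Those of 10 Gy and 5x2 Gy correlated at -0.24 and -0.21. With 2 arrays of 10 Gy the deviations mirror each other, so these r cannot decide the question. The causes of these shifts were not tested. Probes at background or saturated, and the same dye orientation throughout, limit what the ratios can show.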

Other observations

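Gene families outside the lists were looked at after the values had been seen, and are given as counts beside the 32.2% of all genes that fell. Of 10 small nucleolar RNA host genes (Snhg), whose introns carry snoRNAs, 9 fell and 1 rose, with a median log2 ratio of -0.85. Besides Snhg5, at least 2-fold lower were Snhg3 (-0.97, -1.20 and -1.21), Snhg20 (-1.0, -1.17 and -1.15) and Snhg16 (-0.94, -1.07 and -1.05), all near or below -1 on every array. Among pre-mRNA splicing genes, 14 of 20 hnRNP genes (70%) fell and 0 rose, with a median of -0.53, and 7 of 10 SR protein genes (70%) fell and 0 rose, with a median of -0.36. The lowest of the SR genes was Srsf7, at -0.96, -1.10 and -1.17, and of the hnRNP genes Hnrnpa0, at -1.09, -1.11 and -1.0. Pnn, which codes for the splicing-associated protein pinin, was at -1.32, -1.39 and -1.30. Of 78 mitochondrial ribosomal protein genes 45 (57.7%) fell and 3 rose, none of them 2-fold, with a median of -0.32. The medians stayed below 0 in all 17 alternatives; that of the SR genes was -0.59 in the fit of all 8 arrays with slide as a block. Spots of 3 hnRNP genes and 1 SR gene were saturated on at least 1 array.

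Some further genes at least 2-fold higher are given, also chosen by hand after their values were seen. Gsn, the actin-severing protein gelsolin, was at 1.5, 1.74 and 1.46, 2.97-fold higher, and the formin genes Inf2 and Fhod1, which build actin filaments, rose 2.62-fold and 2.53-fold, Fhod1 without a call with slide as a block. Complement C3 was at 1.45, 1.62 and 1.52, 2.89-fold higher, and Lgals9 (galectin-9) rose 2.30-fold with replicate 3 the highest (1.02, 1.03 and 1.55). The elastic fibre genes Emilin2 and Emilin1 rose 2.73-fold and 2.51-fold, and the proteoglycan gene Vcan 2.17-fold. Parp3, an ADP-ribosyltransferase of break repair, was at 1.60, 1.29 and 1.5, 2.76-fold higher. Of metabolic genes Aldh4a1, of proline breakdown, rose 2.69-fold, Xdh, the xanthine dehydrogenase, 2.61-fold, and Txnip, which restrains thioredoxin and glucose uptake, 2.19-fold.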
